A study of Homo sapiens with 12 samples.

Results

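ERβ2, a splice isoform of estrogen receptor β with its own C terminus, was overexpressed in BT549 cells and the transcriptome was read 24 h later. The comparison took the 3 arrays from cells transfected with pcDNA3-flag-ERβ2, a plasmid that carries the FLAG-tagged ERβ2 cDNA, and the 3 arrays from cells transfected with pcDNA3-EV, the empty vector (EV). These are 6 of the 12 arrays of the series and were chosen by their labels. The other 6 come from cells taken 48 h after control siRNA or ERβ2 siRNA. All groups are of 1 cell line, BT549, established from a triple-negative breast tumour, and the overexpression was transient. The question was which transcripts differ when ERβ2 is added to cells that already express it. Per the study design, the 3 arrays of a group are biological replicates, and the p-values measure the spread between them.

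Estrogen receptors are ligand-dependent transcription factors that bind estrogen response elements and also act through other factors such as AP-1 and NF-κB. ERβ2 binds the classical ligands poorly and can pair with the other estrogen receptors. Transfected plasmid DNA itself can be sensed in the cytosol, and interferon induction is a common response of cells to it.

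Values are log2 values from RMA, and a change is the mean of the ERβ2 arrays minus the mean of the EV arrays. The words rose and fell are kept for genes whose p from limma, adjusted by Benjamini-Hochberg, did not exceed 0.1, and a gene was called when its fold change was also at least 1.5. Of 17958 genes, 2 passed the adjusted p (0.0111%), LIF and H2BC8, both upward, and 0 (0%) were called. The array medians lay between 5.08 and 5.14. EV replicate 2 stood slightly apart, with a mean correlation of 0.99695 with the other EV arrays, against 0.99788 to 0.99856 for the other 5 arrays, and without it 6 genes passed, while 0 passed without any one of the other 5 arrays. The 12 mesenchymal markers had a median signal rank of 97.35% among all genes, against 28.8% for 14 luminal breast markers, 20.1% for 11 leukocyte markers and 18.3% for 10 endothelial markers.

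ESR2, the gene that encodes ERβ, was higher with the plasmid without passing the test. Its values were 4.08, 3.93 and 4.01 with EV and 4.35, 4.72 and 4.37 with ERβ2, so the groups did not overlap, and replicate 2 of the ERβ2 arrays was the highest. The change was 0.47 (adjusted p = 0.449 from limma), and an exact two-sided permutation test gave p = 0.1, the smallest that 3 arrays against 3 allow. The signal of ESR2 was near the low end of the arrays, at a rank of 26.1% among all genes. ESR2 did not fall after ERβ2 siRNA, with a change of −0.02 against control siRNA (adjusted p = 0.913 from limma). The cluster of probes sums all isoforms, and how many of the probes lie in the transfected cDNA was not known. How closely this cluster follows ERβ2 mRNA was not tested. ESR1, the gene of ERα, differed by 0.08 (95% confidence interval −0.11 to 0.26). Correlations with ESR2 over the 6 arrays were taken for the 7546 genes with a standard deviation of at least 0.1. The genes that followed ESR2 most closely were SPTY2D1, OR10G8, SNORD13P1, PITHD1 and NRIP3. SPTY2D1 had a Pearson correlation of 0.9938, given as a description across arrays of 2 groups.

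LIF, an interleukin 6 family cytokine that signals through STAT3, rose 1.48-fold. Its values were 8.15, 8.28 and 8.18 with EV and 8.75, 8.75 and 8.80 with ERβ2. All ERβ2 arrays lay above all EV arrays, by 0.56 on average (adjusted p = 0.0794 from limma, standard error 0.06). These values are from the brightest cluster of probes for LIF. With the mean over its clusters the change was 0.42 and did not pass (adjusted p = 0.41 from limma). LIF also rose after ERβ2 siRNA, by 0.46 against control siRNA (adjusted p = 0.0051 from limma), in arrays that share no sample with the plasmid comparison. The difference between the 2 effects was not significant (adjusted p = 0.559 from limma over all 12 arrays), and 26.4% of all genes passed that test of the difference.

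H2BC8, a replication-dependent histone H2B gene, rose 1.45-fold. Its values were 8.03, 8.06 and 8.10 with EV and 8.57, 8.65 and 8.57 with ERβ2, again without overlap, 0.53 higher on average (adjusted p = 0.0794 from limma, standard error 0.05). After ERβ2 siRNA it fell by 0.49 (adjusted p = 0.0597 from limma), and the 2 effects differed (adjusted p = 0.0027 from limma). Of 46 histone genes tested, H2BC8 included, 3 were higher with the plasmid (6.52%, against 2.96% of all genes) and 2 lower (4.35%, against 4.06%) at an unadjusted p under 0.05. The median change was −0.02, beside −0.003 over all genes. After ERβ2 siRNA 37 of the 46 fell, against 17.5% of all genes, with a list median of −0.30, so the fall of H2BC8 there was shared by most histone genes. Among the 18 other histone genes within 100 kb of H2BC8 in the RefSeq gene order, 12 were lower and 6 higher than with EV, and only H2BC5, at 0.30, had an unadjusted p under 0.05. Histone genes are near-identical in their coding sequence, so which copy the probes read is uncertain.

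**Figure D1:**
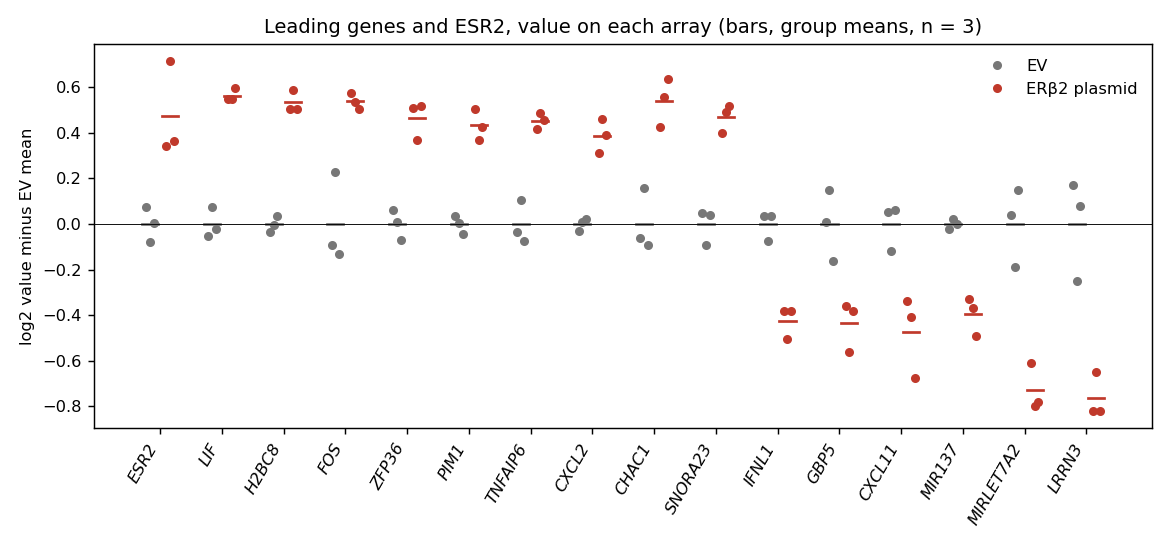
Log2 value on each array minus the EV mean of that gene (vertical axis) for ESR2 and 15 leading genes (horizontal axis). Grey points are the 3 EV arrays, red points the 3 ERβ2 arrays and short bars the group means. The genes were chosen by small p-values or by large differences without overlap, so that the groups lie apart here follows largely from the choice. Over all genes the groups lie apart upward in 5.35% and downward in 6.67%. Changes run from LIF at 0.56 to LRRN3 at −0.76, and LIF and H2BC8 alone passed the adjusted p.

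The remaining leading genes had adjusted p-values above 0.1. The largest differences upward after LIF and H2BC8 included FOS and CHAC1, at 0.54 each, ESR2, SNORA23 (0.47), ZFP36 (0.47), DOC2B (0.47), TNFAIP6 (0.45) and TNFRSF10D (0.45). The largest downward were LRRN3 (−0.76), MIRLET7A2 (−0.73), BLID (−0.59), TAS2R20 (−0.58), USP27X-DT (−0.55), RASA4 (−0.51), MIR31 (−0.51), MIR137HG (−0.50), DPY19L2P2 (−0.50) and SH3TC2 (−0.49). Their adjusted p-values from limma ranged upward from 0.218, the value of MIRLET7A2, SNORA23, ZFP36, TNFAIP6 and LRRN3. PIM1, a serine/threonine kinase downstream of STAT3, stood among the 5 smallest p-values with 9.13, 9.10 and 9.05 with EV and 9.60, 9.46 and 9.52 with ERβ2, a change of 0.43 (adjusted p = 0.218 from limma). After ERβ2 siRNA PIM1 fell by 0.26 (adjusted p = 0.0314 from limma), and the 2 effects differed (adjusted p = 2.5e-04 from limma). LRRN3, a leucine-rich repeat membrane protein of the nervous system, had values of 4.90, 4.48 and 4.81 with EV and 3.91, 4.08 and 3.91 with ERβ2. This was the largest difference among the genes tested, on a signal near the low end of the arrays.

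Most genes were bounded closely. The 95% confidence interval of the change lay within 1.5-fold in either direction for 17777 genes (98.99%) and within 1.2-fold for 11802 (65.72%). By the estimate alone, 3 genes differed by 1.5-fold or more and 315 by 1.2-fold or more, 124 of them higher and 191 lower with ERβ2. At an unadjusted p under 0.05, 531 genes were higher (2.96%) and 729 lower (4.06%), which is 7.02% of all genes. That split depended on the scaling of the arrays. It was 698 higher and 349 lower after median centring of the arrays, and 806 higher and 586 lower after a further quantile normalization.

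**Figure D2:**
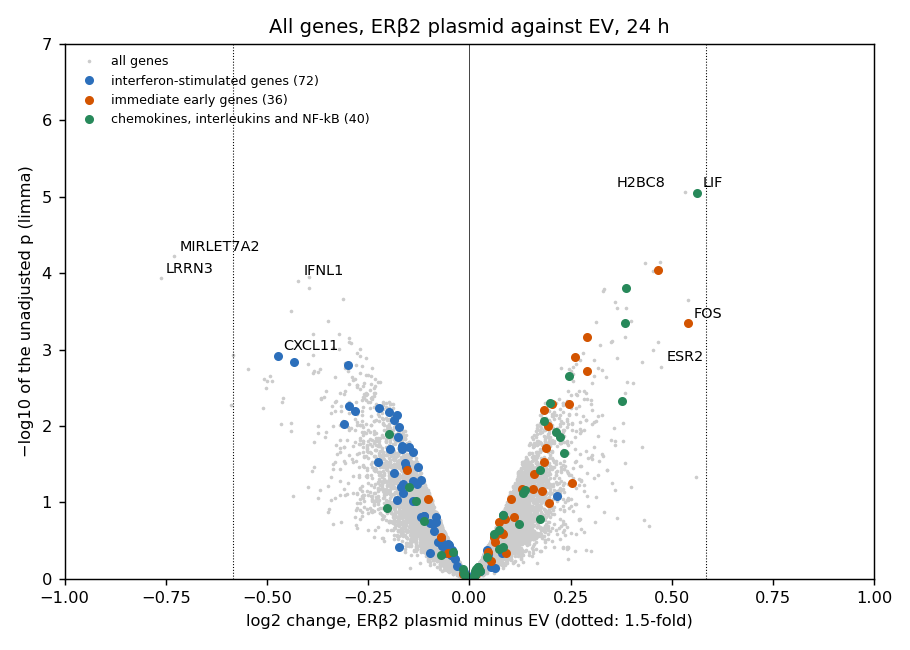
Log2 change of ERβ2 against EV (horizontal axis) and −log10 of the unadjusted p from limma (vertical axis) for all 17958 genes in grey, with 3 gene lists in colour. Interferon-stimulated genes lie mostly left of 0, and immediate early genes and the chemokine list mostly right of 0. Dotted lines mark 1.5-fold, which only LRRN3, MIRLET7A2 and BLID exceed.

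Gene lists are described below by the number of members at an unadjusted p under 0.05, set beside the 2.96% higher and 4.06% lower over all genes. Immediate early genes encode the transcription factors and feedback regulators that respond to signals within minutes. Of 36 tested, 12 were higher (33.3%) and 1, EGR1, was lower. None passed the adjusted p. The median change was 0.11, and 31 of 36 lay above 0, against 47% of all genes. FOS, a subunit of AP-1, had values of 7.08, 7.40 and 7.04 with EV and 7.75, 7.71 and 7.68 with ERβ2, a change of 0.54 (adjusted p = 0.325 from limma). The groups did not overlap, and EV replicate 2 was the EV array nearest to the ERβ2 arrays. ZFP36, which binds AU-rich elements and shortens the life of cytokine mRNAs, went from 7.72, 7.67 and 7.59 to 8.17, 8.03 and 8.18. KLF10, a TGF-β-inducible zinc finger repressor, was higher by 0.29. DUSP1 (0.26), a phosphatase of MAP kinases, IER3 (0.29), JUNB (0.20) and MYC (0.18) were also among the 12. EGR1 went the other way, at −0.15 (adjusted p = 0.675 from limma). In 13 of the 36 genes every ERβ2 array lay above every EV array, against 5.35% of all genes.

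Cytokine and NF-κB genes were also more often higher than lower. Of 40 chemokine, interleukin and NF-κB genes tested, 11 were higher (27.5%) and 1, CXCL12, was lower, with a median change of 0.05, and LIF alone passed. CXCL2, a neutrophil chemokine, had values of 9.03, 9.07 and 9.08 with EV and 9.37, 9.52 and 9.45 with ERβ2, a change of 0.39 (adjusted p = 0.218 from limma). CXCL3, its neighbour in the same chemokine cluster, went from 7.38, 7.37 and 7.36 to 7.87, 7.64 and 7.75, also without overlap. IL6, at 10.91, 10.96 and 10.88 with EV and 11.10, 11.15 and 11.10 with ERβ2, was the strongest signal among these cytokines and differed by 0.20. SOCS3 (0.25), the feedback inhibitor of cytokine receptors that is induced by STAT3, CSF3 (0.38), CXCL8 (0.21) and TNFAIP3 (0.22), the NF-κB feedback inhibitor A20, were higher as well.

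Some promoters of this list share a sequence feature. The list was drawn up to hold NF-κB genes, so the share of such promoters is not independent of that choice. The κB letters GGGANTTTC, searched on either strand in the 300 bases around each start, most of them upstream, in the RefSeq promoter table of GRCh38.p14, occurred in 11 of the 32 list members with a promoter in the table (34.4%) and in 1.26% of 13864 promoters. Among the 7 of the 32 that were higher at an unadjusted p under 0.05 the letters occurred in 5, CXCL2, CXCL3, IL6, CXCL5 and TNFAIP3. The other 2 of the 7 were among the 21 members without the letters. CXCL2 and CXCL3 are neighbours in the same chemokine cluster, so their promoters may not be independent. The median change was 0.08 for the 11 members with the letters and 0.02 for the 21 without. The 7 were picked by the same plasmid values, and the split by the letters was not tested. A match is a description and not a bound site. The CXCL2 promoter is shown for the position of the motif, the second run of capitals (the first is a match to the interferon element described below), on the minus strand at chr4:74099146-74099445, 5′ to 3′.
CXCL2: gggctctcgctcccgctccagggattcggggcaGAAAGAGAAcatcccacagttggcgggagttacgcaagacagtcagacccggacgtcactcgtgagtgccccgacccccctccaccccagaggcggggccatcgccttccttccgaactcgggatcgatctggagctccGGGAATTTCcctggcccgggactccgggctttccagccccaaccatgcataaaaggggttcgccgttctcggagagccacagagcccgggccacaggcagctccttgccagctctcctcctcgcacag

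Interferon-stimulated genes differed in the opposite direction. Of 72 tested, 22 were lower (30.6%) and 0 higher at an unadjusted p under 0.05 from limma, 59 lay below 0, against 53% of all genes, and the median change was −0.09. The 22 became 12 with median centring of the arrays and 13 without ERβ2 replicate 3. Over all genes the number lower went from 729 to 349 and 508 in the same 2 settings. None passed the adjusted p, and the 22 lay between 1.09-fold and 1.39-fold lower. In 25 of the 72 (34.7%) every ERβ2 array was below every EV array, against 6.67% of all genes. CXCL11, a T cell chemokine induced by interferon, had values of 6.65, 6.48 and 6.66 with EV and 6.26, 6.19 and 5.92 with ERβ2, a change of −0.47 (adjusted p = 0.449 from limma). GBP5, an interferon-induced GTPase, went from 7.45, 7.59 and 7.28 to 7.08, 6.88 and 7.06. TRIM5, a restriction factor against retroviral capsids, went from 7.71, 7.75 and 7.67 to 7.37, 7.34 and 7.52. The groups were apart for these 3 genes. MX2 (−0.28), OAS1 (−0.17) and RSAD2 (−0.18) were lower by less. MX1 (−0.08) and ISG15 (−0.05), which are among the best-known members, had unadjusted p-values above 0.05.

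Of the interferon genes described here, IFNL1 had the largest difference. IFNL1, a type III interferon, had values of 7.56, 7.45 and 7.56 with EV and 7.14, 7.02 and 7.14 with ERβ2, a change of −0.42 (adjusted p = 0.218 from limma). IFNB1, the type I interferon gene β, was at 7.43, 7.56 and 7.10 with EV and 7.20, 7.01 and 7.21 with ERβ2, and its groups overlapped. IFNL3 differed by −0.03. Of 33 interferon and nucleic acid sensor genes tested, 5 were lower and 0 higher at an unadjusted p under 0.05 from limma, among them the cytosolic sensors IFI16 (−0.19) and DHX58 (−0.31), which also stand in the list of interferon-stimulated genes.

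All these interferon readings were taken on top of a high level in the EV arrays. The 72 interferon-stimulated genes had a mean log2 value of 9.45 over the EV arrays and 9.35 over the ERβ2 arrays, against 6.19 with control siRNA and 6.20 with ERβ2 siRNA. In 71 of the 72 the EV mean was above the control siRNA mean, with a median difference of 3.06 on the log2 scale. OAS1, for example, had a mean of 5.64 with control siRNA and values of 11.35, 11.35 and 11.37 with EV. IFNB1 had a mean of 3.56 with control siRNA. The plasmid and siRNA groups differ in nucleic acid, transfection reagent, cell density at transfection and time, which cannot be told apart. In bulk RNA, fewer responding cells and less RNA per cell cannot be told apart.

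**Figure D3:**
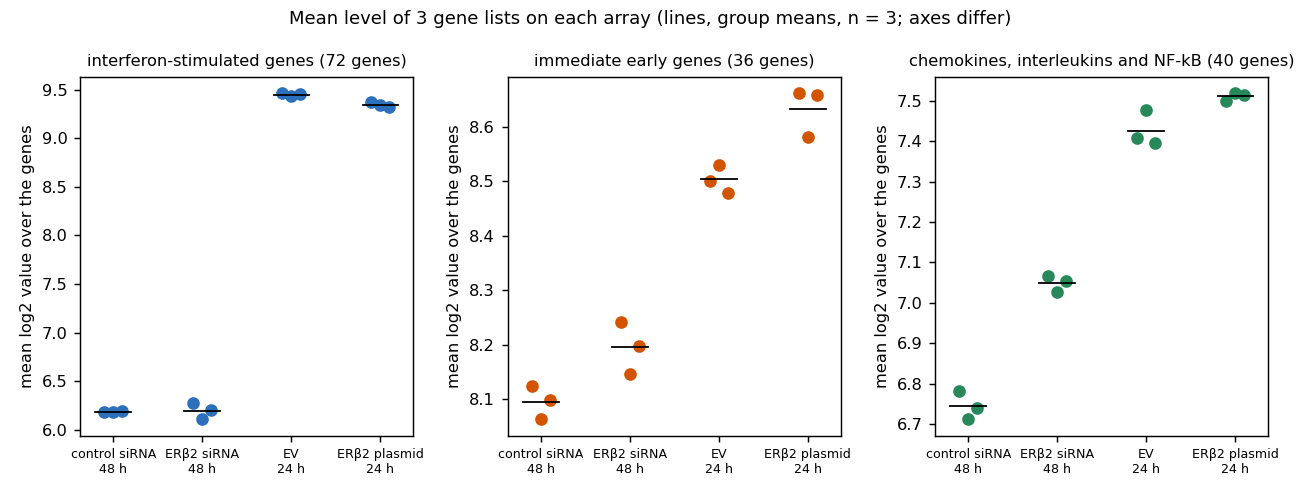
Mean log2 value over the genes of a list (vertical axes, of different range) on each of the 12 arrays, by group (horizontal axis), with lines at the group means. The interferon-stimulated genes stand near 6.19 in the siRNA groups and at 9.45 and 9.35 with EV and ERβ2, while the immediate early genes and the chemokine list are highest with ERβ2.

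The promoters of the interferon-stimulated genes held the core letters of the interferon-stimulated response element, GAAANNGAA on either strand, in 36 of 56 members with a promoter in the table (64.3%), against 6.82% of all promoters. Among the 17 of them that were lower at an unadjusted p under 0.05 the letters occurred in 11 (64.7%). The median change was −0.10 for members with the letters and −0.10 for those without, so the presence of the letters in this window did not separate the members that were lower. The promoters of IFNL1 (plus strand, chr19:39296157-39296456) and TRIM5 (minus strand, chr11:5685025-5685324) are shown to place the motif. Capitals mark the response element core, in IFNL1 a pair of overlapping matches, and in TRIM5 also an upstream AP-1 match, TGANTCA.
IFNL1: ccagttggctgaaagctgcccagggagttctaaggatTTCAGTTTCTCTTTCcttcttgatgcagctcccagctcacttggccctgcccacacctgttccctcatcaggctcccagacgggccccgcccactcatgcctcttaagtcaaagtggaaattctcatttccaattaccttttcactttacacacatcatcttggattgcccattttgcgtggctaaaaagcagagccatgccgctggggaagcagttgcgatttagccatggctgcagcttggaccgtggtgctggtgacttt
TRIM5: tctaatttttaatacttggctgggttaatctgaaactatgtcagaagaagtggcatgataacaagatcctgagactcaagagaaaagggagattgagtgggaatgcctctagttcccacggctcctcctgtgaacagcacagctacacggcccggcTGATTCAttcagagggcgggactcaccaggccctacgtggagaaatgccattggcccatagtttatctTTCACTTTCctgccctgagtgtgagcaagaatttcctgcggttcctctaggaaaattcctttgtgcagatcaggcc
The AP-1 letters TGANTCA occurred in 5.58% of all promoters. The palindromic estrogen response element was found in 3 of 13864 promoters (0.0216%) and in no promoter of the interferon, immediate early, chemokine or estrogen target lists, in this window alone.

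Stress genes were higher in small number. Of 44 heat shock and unfolded protein response genes tested, 7 were higher (15.9%) and 0 lower at an unadjusted p under 0.05 from limma, while the median change was 0.01. The 7 were CHAC1, SESN2, DDIT3, HERPUD1, DNAJB9, ATF4 and TRIB3, and ATF4 is the transcription factor of the integrated stress response that induces CHAC1, SESN2, DDIT3 and TRIB3. CHAC1, which degrades glutathione, had values of 7.07, 7.29 and 7.04 with EV and 7.56, 7.69 and 7.77 with ERβ2. SESN2 went from 8.37, 8.42 and 8.19 to 8.72, 8.71 and 8.75, and DDIT3 from 9.49, 9.37 and 9.42 to 9.65, 9.72 and 9.70. The groups were apart in all 3. ATF4 itself was higher by 0.18 (adjusted p = 0.563 from limma). Among 28 CDK inhibitor and p53 target genes, 6 were higher (21.4%) and 1, FAS, was lower. GADD45A, a stress-induced growth arrest gene, was higher by 0.33 (adjusted p = 0.218 from limma), and CDKN1A, the gene of p21, by 0.16 (adjusted p = 0.59 from limma).

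Of 52 G2 and M phase genes, 1 was higher and 1 lower (1.92% each) at an unadjusted p under 0.05, but in 11 (21.2%, against 6.67% of all genes) every ERβ2 array was below every EV array, and 37 lay below 0, with a median of −0.04. Of 42 G1/S and S phase genes 3 were higher (7.14%), CCND2 (0.26), CDC25A (0.22) and RRM2 (0.15). The interval lay within 1.5-fold for all of these 94 genes. Of 29 estrogen target genes, 5 were higher (17.2%, against 2.96% of all genes), including IGFBP4 (0.23), an IGF-binding protein, and MYC, and 3 lower (10.3%, against 4.06%), RARA (−0.23), RET (−0.28) and CXCL12 (−0.20). Their median was 0.02, and none passed the adjusted p. None of the 13 HIF subunit and hydroxylase genes reached an unadjusted p under 0.05 from limma, and all 13 intervals lay within 1.5-fold. None of the 29 genes for EMT factors, cadherins and keratins did either. Of 37 matrix metalloproteinase and invasion genes, 2 were higher, among them PLAU (0.20), and 4 lower, among them RECK (−0.17) and MMP1 (−0.15). Of the 15 genes that the study names, ESR2 included, 3 had an unadjusted p under 0.05, ESR2, CDKN1A and RECK, and 14 had an interval within 1.5-fold.

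**Figure D4:**
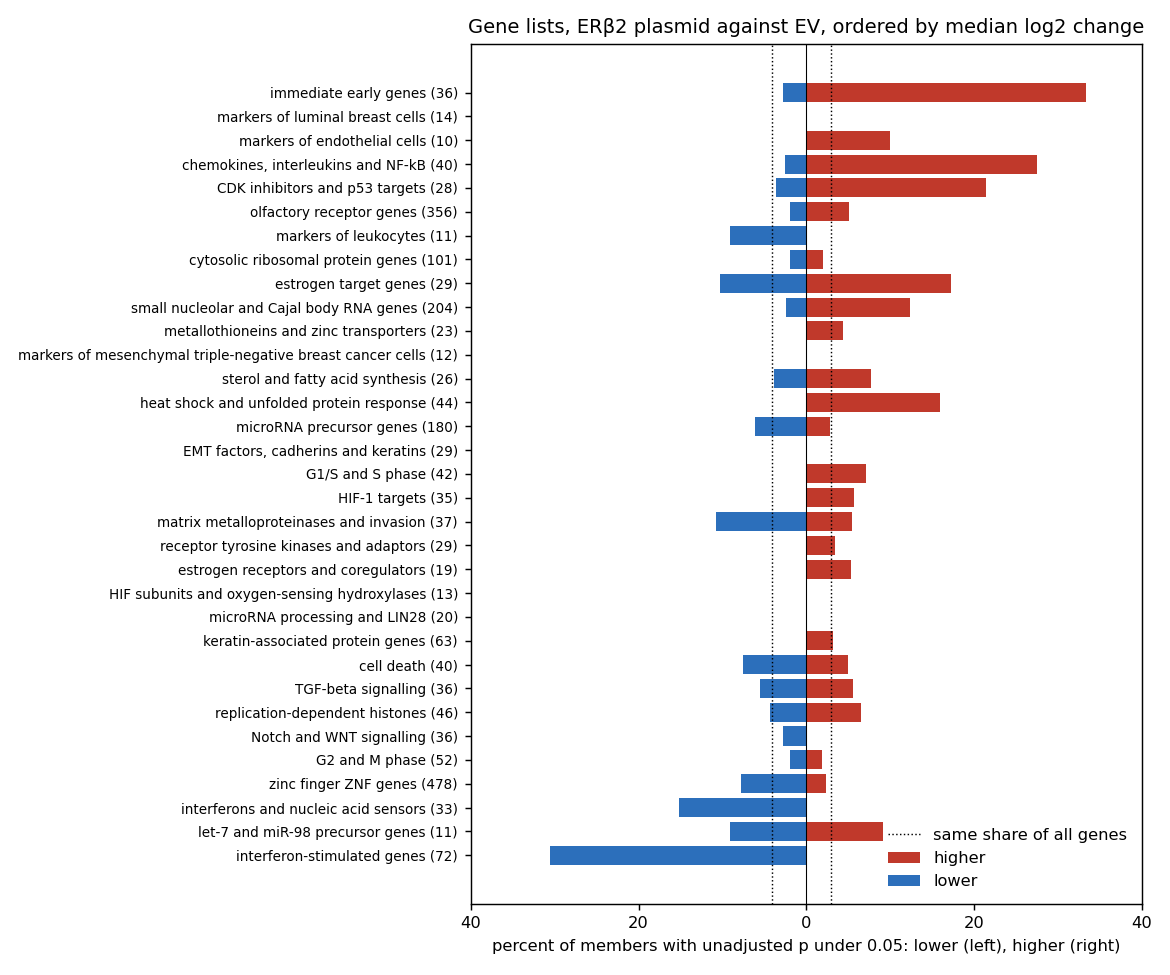
Percent of the members of each of 33 gene lists (rows, number tested in brackets) that were lower (blue, left) or higher (red, right) with ERβ2 at an unadjusted p under 0.05. Dotted lines mark the 4.06% and 2.96% of all genes. The longest bar to the left is that of the interferon-stimulated genes (30.6%), and the longest to the right are those of the immediate early genes (33.3%) and the chemokine list (27.5%).

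Small RNA genes held several of the largest differences, on low signals. MIRLET7A2, one of the precursor genes of let-7a, had values of 4.81, 4.58 and 4.92 with EV and 4.16, 3.97 and 3.99 with ERβ2, a change of −0.73 (adjusted p = 0.218 from limma). MIRLET7A1, whose precursor gives the same let-7a-5p, went the other way, from 3.52, 3.67 and 3.56 to 3.76, 3.83 and 3.74 (change 0.19, adjusted p = 0.577 from limma). The other 9 genes of the let-7 and miR-98 list had unadjusted p-values above 0.05, and the median of the 11 was −0.07. The mature RNAs are shown because the precursors share their 5p arm and its seed (bases 2 to 8, in capitals) and differ in the 3p arm. Sequences and positions are those of RefSeq on GRCh38.p14, for let-7a-5p and let-7a-2-3p of MIRLET7A2 at chr11:122146568-122146589 and chr11:122146523-122146544 (minus strand), and for let-7a-3p of MIRLET7A1 at chr9:94176013-94176033 (plus strand).
let-7a-5p: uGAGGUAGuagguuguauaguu
let-7a-2-3p: cUGUACAGccuccuagcuuucc
let-7a-3p: cUAUACAAucuacugucuuuc
The array reads precursor and host transcripts as well as mature RNA, and which of them gave the signal was not tested. BLID lies within 100 kb of MIRLET7A2 and was lower too, at 4.76, 5.04 and 4.40 with EV and 4.21, 3.95 and 4.27 with ERβ2, while MIR100 (−0.14) and MIR125B1 (0.09) of the same region overlapped between groups.

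MIR137 and its host MIR137HG were both lower. MIR137 had values of 5.72, 5.76 and 5.74 with EV and 5.41, 5.37 and 5.25 with ERβ2, a change of −0.40 (adjusted p = 0.218 from limma), and MIR137HG went from 6.0, 6.17 and 5.81 to 5.65, 5.26 and 5.56. MIR137 lies inside MIR137HG, so the 2 readings are not independent. MIR31, which lies inside MIR31HG, was lower at −0.51, while MIR31HG itself differed by 0.09. After ERβ2 siRNA both MIR137 (0.42, adjusted p = 0.0351 from limma) and MIR31 (0.36, adjusted p = 0.0328 from limma) rose, and for each the effect differed from that of the plasmid (adjusted p = 0.0020 for MIR137 and 0.0033 for MIR31, from limma). Their main mature RNAs, miR-137-3p (chr1:98046091-98046113) and miR-31-5p (chr9:21512158-21512178), both on the minus strand, carry different seeds, in capitals, from each other and from let-7.
miR-137-3p: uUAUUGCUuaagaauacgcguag
miR-31-5p: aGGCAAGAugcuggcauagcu
Of 180 microRNA genes tested, 11 were lower (6.11%) and 5 higher (2.78%).

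Small nucleolar and Cajal body RNAs, which guide the modification of ribosomal and spliceosomal RNA, were higher in 25 of 204 (12.3%) and lower in 5. The median change of the 204 was 0.02, and 116 lay above 0. Their mean level overlapped between groups, at 5.75 to 5.82 on the EV arrays and 5.80 to 5.85 on the ERβ2 arrays. SNORA23 had values of 8.91, 8.77 and 8.90 with EV and 9.26, 9.35 and 9.38 with ERβ2, a change of 0.47 (adjusted p = 0.218 from limma). SNORA20 (0.39) and SCARNA1 (0.38) followed. Among 478 ZNF zinc finger genes 37 were lower (7.74%) and 11 higher. With median centring of the arrays 18 ZNF genes, in place of 37, were lower. Over all genes 349, in place of 729, were lower in that setting. TAS2R20 belonged to a run of neighbouring bitter taste receptor genes in which 6 of 8 were lower at an unadjusted p under 0.05. This group was looked at after its values were seen, the signals are at the low end, and the genes are similar in sequence, so the copies may share probes.

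Genes called after ERβ2 siRNA differed little with the plasmid, as did nearly all genes. Of 584 genes called upward after knockdown (3.25% of all genes), 346 (59.2%) were lower with the ERβ2 plasmid, against 53% of all genes, and the median change was −0.02. Of 227 called downward (1.26%), 104 (45.8%) were higher, against 47%, and the median was −0.01. The 95% interval of the plasmid effect lay within 1.5-fold for 581 (99.5%) and 219 (96.5%) of them, against 99% of all genes. EGLN3, the gene of PHD3, was one of the 584, with 0.72 after knockdown and −0.08 with the plasmid.

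Several members of the signalling lists were higher under both treatments. After ERβ2 siRNA 18.3% of all genes rose and 17.5% fell. Of the full lists, 16 of 36 immediate early genes, 18 of 40 chemokine list genes and 23 of 44 stress genes rose. In the same lists 5, 3 and 3 genes fell. Of the 12 immediate early genes that were higher with the plasmid, 8 rose after knockdown, among them NR4A2 (0.81) and NR4A3 (1.04), which encode orphan nuclear receptors, and 1, JUND, fell. Of the 11 members of the chemokine list, 7 rose after knockdown, including IL6 (1.33) and CXCL5 (1.28). All 7 stress genes did so, with HERPUD1 at 0.45 and CHAC1 at 0.48. FOS, at 0.10 after knockdown (adjusted p = 0.526 from limma), and ZFP36, at 0.003, did not pass there. Of the 22 interferon-stimulated genes that were lower with the plasmid, 3 rose and 4 fell after knockdown. The siRNA arrays were taken later and without plasmid, and time and reagent cannot be told apart.

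**Figure D5:**
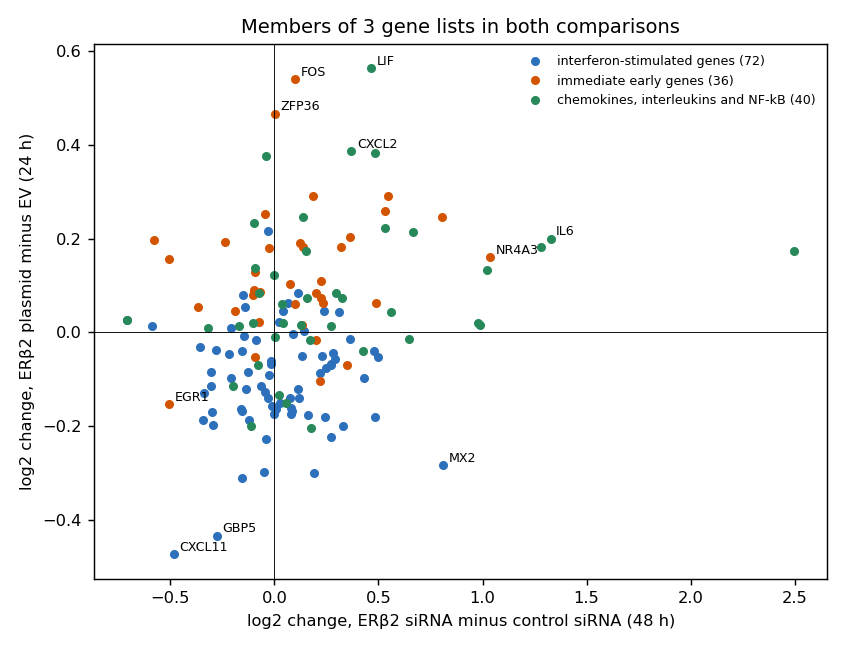
Log2 change after ERβ2 siRNA at 48 h (horizontal axis) and with the ERβ2 plasmid at 24 h (vertical axis) for members of 3 gene lists, 1 point a gene. LIF, CXCL2 and IL6 lie right of 0 and above 0, with LIF at 0.46 and 0.56, while FOS and ZFP36 lie near 0 on the horizontal axis.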

How the data were processed

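Transcripts of BT549 cells were measured on Human Gene 1.1 ST arrays of Affymetrix, 3 per group. The deposited values are log2 values with 2 decimals, from the authors' RMA run in Affymetrix Expression Console (version and annotation build not given in the sources used here). RMA summarises probes per transcript cluster and equalises arrays, so a shift shared by most genes would be removed. Of 33297 clusters, 19181 named a single gene. Each of the 17958 genes was read by its brightest cluster, by the mean of 12 arrays. Changes were fitted with limma 3.58.1 in R 4.3.3 on the 6 plasmid arrays (8.03 degrees of freedom), without a filter, and the procedure was tested on simulated data. The siRNA arrays were fitted likewise, and differences between effects over all 12 arrays. Arrays have no read depth, and their number limits the precision. The labels' replicate numbers were not used to pair arrays in the main fit. Correlations of deviations were −0.14, −0.09 and 0.10 for like numbers and −0.13 to 0.19 for unlike numbers. With 3 arrays per group these values cannot decide whether arrays were paired.

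The comparison, members and lists were chosen with earlier results of these data known. Genes were named if they passed the adjusted p, had 1 of the 5 smallest p-values, were among the 10 largest differences in either direction without overlap of the groups, are named by the study, or were up to 3 leading members of a list. Further genes in the text were chosen after their values were seen. Of the list entries, 61 were not analysed here. Alternatives covered rows, scaling, filter, test, block and left-out arrays.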

Additional observations from a re-analysis of the deposited data

Results flagged for a closer look

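Transcript clusters without 1 gene symbol lay outside the comparison of genes. Of 14116 such clusters, 15 (0.106%), 6 higher and 9 lower with ERβ2, differed at least 2-fold with groups that did not overlap and an unadjusted p under 0.05, against 0 of 17958 genes by the same rule. Each gene was read by its brightest cluster, and these clusters were not so chosen, so the counts are of unlike features. Some of the 15 hold the same values as another, which leaves 13 distinct readings, 6 higher and 7 lower, and only 3 of the 15 lay above the median signal. None passed an adjusted p of 0.1 in a limma fit over all clusters. Cluster 7998927 differed by 1.21, from 8.08, 8.29 and 8.13 with EV to 9.20, 9.49 and 9.45 with ERβ2. Cluster 8065758 differed by 1.11, from 5.08, 5.04 and 4.86 to 6.01, 6.25 and 6.04. Both had an adjusted p of 0.215 from limma. What these 2 clusters read is not given in the annotation used here.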

How the results depend on the processing

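The count of 2 genes at an adjusted p of at most 0.1 became 0 over all transcript clusters, with the mean over the clusters of a gene, with the methods' t-test (Benjamini-Hochberg or q-values), with the replicate number as a block and at an adjusted p under 0.05. It was 12 without dim genes, 5 with median centring and 44 with an intensity trend and robust prior. Leaving out 1 array gave 0 to 6, with 6 only without EV replicate 2 (FOS, LIF, LRRN3, MIRLET7A2, H2BC8 and TNFAIP6) and 0 without any of the other 5. LIF passed in 7 of 17 settings, H2BC8 in 6 of 17 and ESR2 in 0 of 16 (change 0.35 to 0.54). The cause was not tested. Called genes, 0 at first, were 1 with cyclic loess, 3 with median centring, 2 with the trend, 1 in a fit of all 12 arrays (LRRN3) and 2 at a lower fold cut-off, and 0 to 4 with 1 array left out.

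At an unadjusted p under 0.05, genes higher with ERβ2 numbered 806 after quantile normalization, 845 after cyclic loess and 357 to 1014 with 1 array left out. Genes lower numbered 1233 over all clusters, 349 with median centring and 508 to 797 with 1 array left out. With median centring 12 interferon-stimulated and 18 ZNF genes were lower. With 1 array left out, 13 to 28 interferon-stimulated genes were lower (13 without ERβ2 replicate 3, 15 without EV replicate 3, 28 without EV replicate 2), 9 to 17 immediate early and 9 to 15 chemokine list genes were higher, 17 to 33 small nucleolar RNA genes were higher and 26 to 47 ZNF genes lower. List counts under the alternatives were chosen after seeing the data. The replicate block gave 18 interferon-stimulated genes lower and 10 immediate early genes higher.

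Among named genes with changes near 0, signs turned for GAB1 (0.16, mean over clusters), WT1 (0.0019, quantile normalization), HIF1A (0.0167 with median centring) and, with 1 array left out, HIF1A (−0.0683 to 0.0267), E2F2 (−0.0033 to 0.1017), CCNA2 (−0.0183 to 0.1017) and VHL (−0.0067 to 0.0433).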
